A study of Mus musculus with 12 samples.

Results

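The genes described here are 30 complement components and regulators, taken by gene symbol from the 52550 genes of a mouse lung count table. All 30 symbols were found, and 27 had enough reads to be tested. The samples were the whole lungs of 12 neonatal mice, 1 to a library, which fall into 4 groups of 3. Wild-type (WT) mice given PBS (libraries 3, 4 and 5, which are called replicates by that number) or LPS (replicates 9, 10 and 11) were C57Bl/6J mice with both copies of Adm, the gene of the peptide hormone adrenomedullin. Adm+/- mice, given PBS (replicates 6, 7 and 8) or LPS (replicates 1, 2 and 12), lacked 1 working copy in every cell and are labelled C57Bl/6J as well. Heterozygotes were used because mice without any copy die as embryos, and the line, first made on 129/SvEv, had been backcrossed to C57BL/6J. LPS, an endotoxin of E. coli O55:B5 that provokes inflammation, was injected into the abdomen at 6 mg/kg once a day in 3 doses from postnatal day 3. Control mice received the carrier PBS on the same days, and all lungs were taken 6 h after the third dose, on postnatal day 5.

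Complement is a cascade of blood and tissue proteins that marks microbes and debris for removal. The classical pathway starts with C1q bound to antibody or to a damaged surface, the lectin pathway with collectins or ficolins bound to sugars, and the alternative pathway with factor B and factor D acting on C3. All of them meet at C3, whose cleavage leads to opsonins, to the anaphylatoxins that call in leukocytes, and to the membrane attack complex, while regulators on host cells and in plasma stop the cascade. Liver makes most of the plasma proteins, and macrophages, fibroblasts and epithelial cells of the lung make several of them locally.

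Total counts were between 22382535 and 38062873 per library, with a median of 28494877. The WT PBS replicate 5 and Adm+/- PBS replicate 6 stood apart, with 77.8% and 80.1% of counts in protein-coding genes against 84.3 to 87.6% in the others. The noncoding gene Gm26917 took 16.6% and 13.3% of the counts there against 5.42 to 7.4% elsewhere. Lung markers (Sftpc, Nkx2-1, Scgb1a1 and Ager) summed to 10400 to 14000 CPM (the usual depth-scaled count, here with TMM factors) in all 12 libraries. Adm itself was not called lower in Adm+/- mice, with a log2 difference of -0.50 in PBS (edgeR adjusted p = 0.999) and -0.55 in LPS (adjusted p = 0.480), and its 3 CPM values overlapped between genotypes in both treatments. The study's methods name genotyping and RT-PCR of lung Adm as the check of the line.

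C3 was the most abundant of the 30 genes for its length, at 94.6 counts per kilobase of exon on the CPM scale (RPKM) averaged over the 12 libraries. Next in level per kilobase came Serping1, the C1 inhibitor, at 51 RPKM, C7, which inserts the growing membrane attack complex into a membrane, at 49.8 RPKM, and the C1q chain genes C1qb at 29.9 and C1qa at 24.1 RPKM. Cfp (properdin) at 17 RPKM, the scavenger collectin Colec12 at 16.9 RPKM and the chaperone Clu (clusterin) at 15.8 RPKM followed closely. The order from Serping1 to C7 and from Cfp to Clu rests on differences smaller than the spread among libraries. Clu stood at 30 RPKM when only its longest transcript was used as the length. At the other end, the mannose-binding lectin gene Mbl2 had 0 to 6 counts per library, the macrophage receptor gene Vsig4 0 to 8 and the factor D gene Cfd 1 to 27. These 3 genes were too low to test. The 30 genes together made up 732 to 1040 CPM in the PBS libraries and 1680 to 1980 CPM in the LPS libraries, and the groups did not overlap. C3 alone gave 22.7 to 35.9% of the counts of the 30 genes in PBS and 38.7 to 41.7% in LPS.

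**Figure D1:**
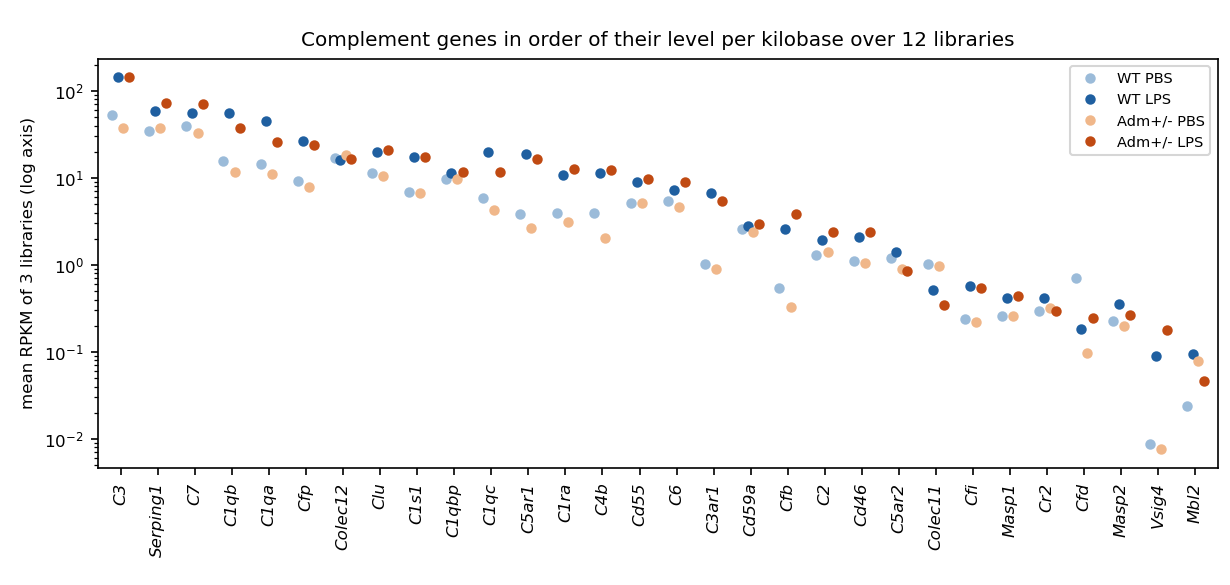
Mean level of each of the 30 genes in RPKM (log axis) in the 4 groups, ordered by the mean over 12 libraries; each point is the mean of 3 libraries. C3 heads the order at 94.6 RPKM over all libraries, and Mbl2 ends it.

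LPS raised most of the complement genes in both genotypes. In WT mice 16 of the 27 tested genes were called, all of them higher (called means that the log2 fold change was beyond 0.5 in either direction and the adjusted p of edgeR's quasi-likelihood test under 0.05). Of all 15885 genes tested, 17.6% were called in WT mice, 10.5% higher and 7.09% lower. In Adm+/- mice 20 of the 27 were called, 19 higher and Colec11 lower, beside 25% of all genes, 12.8% higher and 12.2% lower. The median log2 fold change of the 27 was 0.81 in WT and 1.09 in Adm+/- mice, and that of all tested genes was 0.01 and -0.01. All 16 genes called in WT were also called in Adm+/- mice, and 4 more (Colec11, C6, C7 and Cd46) passed in Adm+/- mice alone. The other 7, Masp2, Colec12, C1qbp, Cd55, Cd59a, C5ar2 and Cr2, passed in neither. Counted over all 30 genes, 19 were higher in every LPS library than in every PBS library in WT mice and 1 was lower (beside 18.3% and 17.9% of all tested genes), and in Adm+/- mice 23 and 2 (beside 26.6% and 27.1%). By role, the calls in WT and Adm+/- mice were 6 and 7 of 10 recognition molecules and their proteases, 5 and 5 of 5 convertase genes, 0 and 2 of 2 terminal components, 3 and 4 of 6 regulators, and 2 and 2 of 4 receptors. Without WT LPS replicate 9 the WT count was 12 of 27, beside 9% of all genes, and with a test against a log2 fold change of 0.5 in place of 0 the counts were 12 and 13, beside 6.3% and 10.7% of all genes. The calls lost in that test were those of Masp1, C2, Cfi and Serping1 in WT mice (edgeR adjusted p = 0.0740 to 0.613) and of C1qa, C1qc, Masp1, C2, C6, Serping1 and Cd46 in Adm+/- mice (adjusted p = 0.0614 to 0.217).

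**Figure D2:**
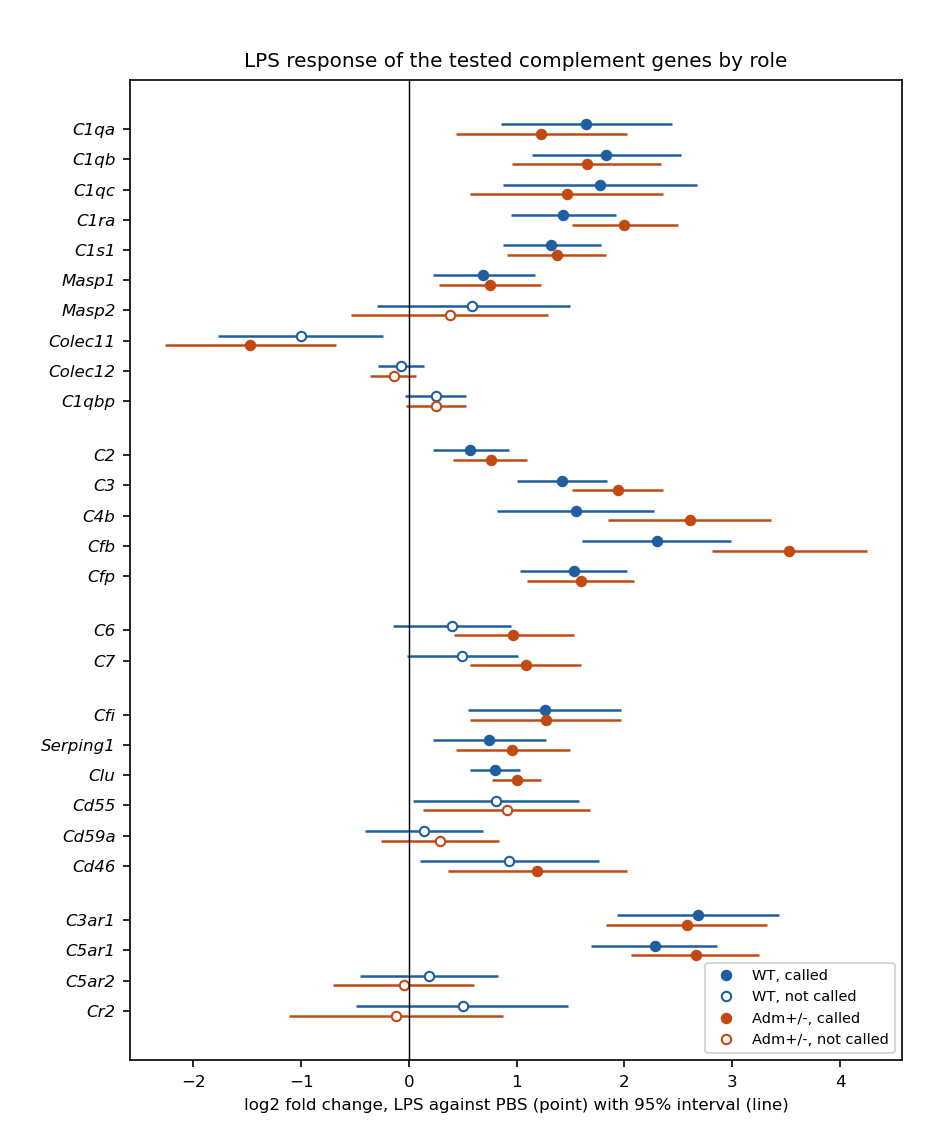
Log2 fold change of LPS against PBS (points) with its 95% interval (lines) for the 27 tested genes in WT and Adm+/- mice, grouped from top to bottom as recognition, convertase, terminal, regulator and receptor genes. Filled points were called; the highest is Cfb in Adm+/- mice at 3.53, and Colec11 is the only gene called lower.

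C1qa, C1qb and C1qc encode the chains of C1q, the recognition unit of the classical pathway, and are known products of tissue macrophages. They lie within 3.6 and 2.9 kb of each other on chromosome 4 (mm10, 136880129 to 136898803, minus strand). C1qa stood at 9.48, 14.3 and 21.7 CPM in WT PBS, 36.4, 32.4 and 72.2 in WT LPS, 13.3, 12.4 and 8.59 in Adm+/- PBS and 29.7, 22.2 and 28.6 in Adm+/- LPS. Every LPS library was above every PBS library of its genotype, and WT LPS replicate 11 was far above the others. The same pattern held for C1qb, with 10.4, 17.3 and 23.2 CPM in WT PBS, 51.2, 45.1 and 83.7 in WT LPS, 15.6, 13.3 and 9.74 in Adm+/- PBS and 42.9, 36.2 and 41.8 in Adm+/- LPS. For C1qc the values were 6.76, 9.12 and 18.4 in WT PBS, 30.7, 24.7 and 60.7 in WT LPS, 9, 9.43 and 6.36 in Adm+/- PBS and 24.3, 19.3 and 24.9 in Adm+/- LPS. The highest WT PBS library of all 3 chains was replicate 5.

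The log2 fold changes of the C1q chains in WT mice were 1.64 ± 0.34 (SE, n = 3 and 3, edgeR adjusted p = 0.0073) for C1qa, 1.83 ± 0.30 (adjusted p = 0.00197) for C1qb and 1.77 ± 0.39 (adjusted p = 0.00884) for C1qc. A fit of only the 6 WT libraries did not call C1qa and C1qc (edgeR adjusted p = 0.0503 and 0.0594). In Adm+/- mice the log2 fold changes were 1.23 ± 0.34 (adjusted p = 0.0188), 1.65 ± 0.30 (adjusted p = 0.00185) and 1.47 ± 0.39 (adjusted p = 0.0146). The call of C1qa in Adm+/- mice was lost without Adm+/- PBS replicate 8 (1.06, adjusted p = 0.0739), Adm+/- LPS replicate 1 (1.15, 0.0596) or replicate 12 (1.18, 0.0562), and that of C1qc without Adm+/- PBS replicate 8 (1.31, adjusted p = 0.0595). The rise was somewhat smaller in Adm+/- mice for each chain, but the differences of -0.41 (95% interval -1.51 to 0.69), -0.18 (-1.14 to 0.77) and -0.30 (-1.55 to 0.94) did not pass the test, with edgeR adjusted p = 0.988, 0.996 and 0.996. Without WT LPS replicate 11 these differences were 0.04, 0.14 and 0.18, so their direction rested on that library, and for C1qb it also rested on WT PBS replicate 3 (0.08 without it).

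Beside C1q, 11 of 15 macrophage and monocyte markers were called higher in WT mice, and 9 higher and 1 lower in Adm+/- mice. Their summed level was 1140 to 1390 CPM in WT PBS, 1800 to 2460 in WT LPS, 1120 to 1340 in Adm+/- PBS and 1810 to 2370 in Adm+/- LPS. The most abundant of them, Lyz2 (lysozyme), had log2 fold changes of 0.63 and 0.64, and Csf1r, the receptor that macrophages need to survive, 0.68 in WT and 0.44 in Adm+/- mice, where it was not called. The C1q sum was 1.92 to 5.54% of the marker sum in WT PBS and 4.89 to 8.8% in WT LPS, ranges that overlapped, and 2.21 to 2.84% in Adm+/- PBS and 4.09 to 4.57% in Adm+/- LPS, which did not. In bulk lung RNA, more macrophages and more C1q RNA per macrophage cannot be told apart, and the part of the marker change in the C1q result was not tested.

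**Figure D3:**
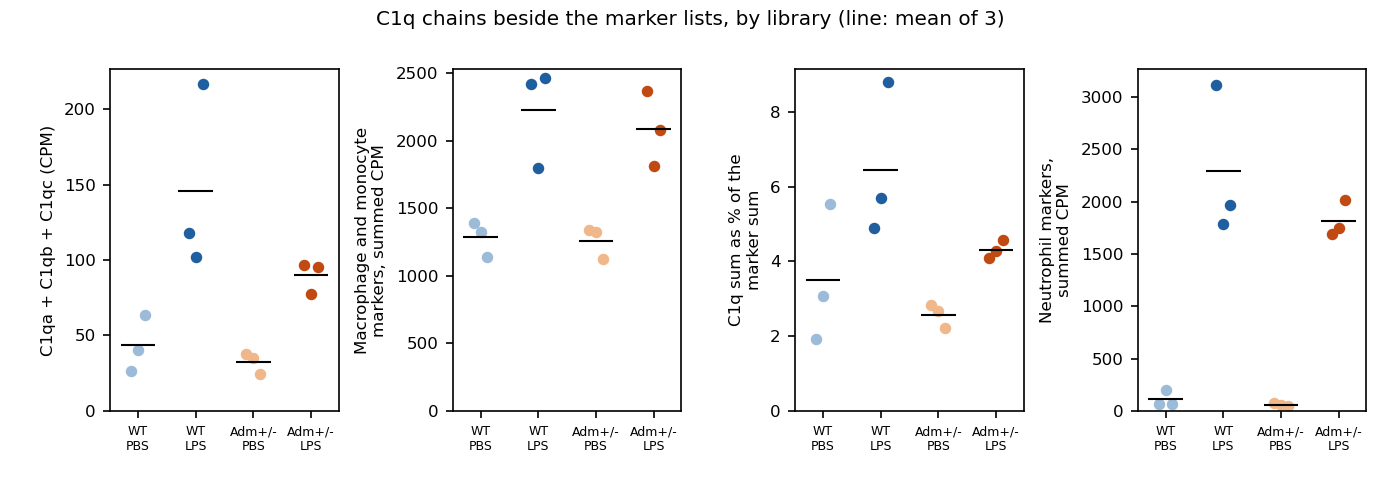
Per library, the summed CPM of the 3 C1q chains, the summed CPM of 15 macrophage and monocyte markers, the first as a percentage of the second, and the summed CPM of 11 neutrophil markers; points are libraries and lines are group means. WT LPS replicate 11 has the highest C1q sum, 217 CPM, and neutrophil markers rise from at most 197 CPM in PBS to at least 1690 CPM in LPS.

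C1ra and C1s1, the serine proteases that C1q sets in motion, are neighbours on chromosome 6, 6.9 kb apart. C1ra (124512405 to 124523443, plus strand) stood at 10.3, 15.9 and 8.96 CPM in WT PBS, 38.2, 30.8 and 26.3 in WT LPS, 7.89, 10.2 and 9.86 in Adm+/- PBS and 41, 36.7 and 34.8 in Adm+/- LPS. C1s1 (124530345 to 124542359, minus strand) stood at 21.7, 27.5 and 15.8, then 62.6, 51.4 and 49.1, then 16.2, 23.6 and 22.8, and then 55.7, 50.8 and 55.5 CPM in the same groups. For both genes the LPS libraries lay far above the PBS libraries and were close to each other. On the log2 scale C1ra rose by 1.43 ± 0.21 in WT (edgeR adjusted p = 0.00116) and by 2 ± 0.22 in Adm+/- lungs (adjusted p = 9.85e-05), and C1s1 by 1.32 ± 0.20 (adjusted p = 0.00123) and 1.37 ± 0.20 (adjusted p = 0.00048). Reads could be shared with near copies, since 48% of the 50-base stretches of C1ra transcripts also occur in C1rb and 21.8% of those of C1s1 in C1s2. These copies held at most 8 and 13 counts in any library.

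Of the lectin pathway members, Masp1 was called higher and Colec11 lower. Masp1, a protease of the lectin and alternative pathways, went from 2.25, 2.67 and 2.72 CPM in WT PBS to 4.53, 3.24 and 4.54 in WT LPS, and from 2.05, 2.6 and 2.9 in Adm+/- PBS to 3.63, 4.44 and 4.74 in Adm+/- LPS. The groups did not overlap, and it was called in both genotypes at 0.69 ± 0.21 (edgeR adjusted p = 0.0347) and 0.75 ± 0.20 (adjusted p = 0.0165). The WT call was lost, at 0.61 to 0.74 and adjusted p = 0.0503 to 0.132, without any one of replicates 3, 4 or 5 (WT PBS), 9 or 11 (WT LPS) and 2 or 12 (Adm+/- LPS). It was also lost in a fit of only the 6 WT libraries (edgeR adjusted p = 0.123) and with all annotated genes tested (0.67, 0.0509). The Adm+/- call was lost without Adm+/- PBS replicate 6 (0.63, adjusted p = 0.0662) or Adm+/- LPS replicate 12 (0.67, 0.0678). Colec11, a collectin that binds sugars and starts the lectin pathway, was the only one of the 27 that was called lower. It went from 1.4, 1.65 and 1.91 CPM in WT PBS to 0.493, 0.832 and 1.15 in WT LPS, and from 1.53, 1.18 and 2.07 in Adm+/- PBS to 0.636, 0.461 and 0.606 in Adm+/- LPS. No LPS library reached a PBS library of its genotype. The log2 fold change was -1.47 ± 0.34 in Adm+/- mice (edgeR adjusted p = 0.00753) and -1 ± 0.33 in WT mice, just outside the threshold (adjusted p = 0.0512), and it was called in WT by DESeq2 (adjusted p = 0.0377), by limma-voom (0.0433) and without WT LPS replicate 11 (-1.33, 0.0268).

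Colec12, at 128 to 162 CPM in every library, had log2 fold changes of -0.07 (95% interval -0.29 to 0.14) in WT and -0.14 (-0.36 to 0.07) in Adm+/- mice, which leaves room only for small changes. C1qbp, a mitochondrial protein that also binds C1q, gave 0.25 (-0.04 to 0.53) and 0.25 (-0.03 to 0.53). Without WT LPS replicate 10 the WT values were -0.02 for Colec12 and 0.16 for C1qbp. Without WT LPS replicate 11 they were -0.15 and 0.36. Masp2, the main protease of the lectin pathway, stood at 0.368 to 1.25 CPM, and its log2 fold changes of 0.59 (-0.30 to 1.49) and 0.38 (-0.54 to 1.29) were too uncertain to give a direction, ranging with 1 library left out from 0.34 (WT PBS replicate 5) to 0.97 (WT PBS replicate 3) and from 0.09 (Adm+/- LPS replicate 2) to 0.59 (Adm+/- LPS replicate 12). Of the stretches of its transcripts, 52.5% are also in Tardbp on the other strand.

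C3 and the genes of its convertases were the role with the highest median log2 fold change, 1.53 in WT and 1.94 in Adm+/- mice. C3, the protein on which all pathways meet (chromosome 17, 57203970 to 57228136, minus strand), stood at 189, 339 and 296 CPM in WT PBS, 812, 702 and 691 in WT LPS, 205, 178 and 198 in Adm+/- PBS and 811, 672 and 746 in Adm+/- LPS. The LPS libraries of both genotypes lay in the same range, far above every PBS library. C3 rose 2.68-fold in WT mice (log2 fold change 1.42 ± 0.18, edgeR adjusted p = 0.00056) and 3.83-fold in Adm+/- mice (1.94 ± 0.18, adjusted p = 7.04e-05). C4b, which supplies the C4 part of the classical and lectin C3 convertase (chromosome 17, 34728380 to 34743882), stood at 10.5, 25.5 and 30.8 CPM in WT PBS, 76.2, 60.7 and 57.3 in WT LPS, 10, 11.7 and 13 in Adm+/- PBS and 86.3, 56.4 and 68.6 in Adm+/- LPS. WT PBS replicate 3 was as low as the Adm+/- PBS libraries, and the other WT PBS libraries were above them. It rose 2.92-fold in WT mice (1.55 ± 0.31, edgeR adjusted p = 0.00615) and 6.09-fold in Adm+/- mice (2.61 ± 0.33, adjusted p = 0.000214). Of the 50-base stretches of C4b, 34.6% are also in its near copy C4a, whose counts were 23 to 80 per library, so that C4b held 6.65 to 33.2 times as many counts as C4a.

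Cfb, factor B of the alternative pathway convertase (chromosome 17, 34856374 to 34862518, minus strand), had the steepest rise of the 27 in Adm+/- mice. Its level was 0.777, 1.6 and 2.22 CPM in WT PBS, 8.04, 6.61 and 7.45 in WT LPS, 1, 1.01 and 0.795 in Adm+/- PBS and 11.1, 8.8 and 12.6 in Adm+/- LPS. All Adm+/- LPS libraries were above all WT LPS libraries. The fold was 4.92 in WT mice (log2 2.3 ± 0.30, edgeR adjusted p = 0.000603) and 11.5 in Adm+/- mice (log2 3.53 ± 0.31, adjusted p = 5.91e-05). C2, the paralog of factor B that serves the classical and lectin pathways, ends 85 bases before the start of Cfb and had a smaller fold change. It went from 4.54, 6.07 and 4.51 CPM in WT PBS to 7.33, 7.32 and 7.89 in WT LPS, and from 5.47, 5.17 and 5.8 in Adm+/- PBS to 9.27, 10.1 and 8.44 in Adm+/- LPS, without overlap. Its log2 fold change was 0.57 ± 0.15 in WT mice (edgeR adjusted p = 0.0216) and 0.76 ± 0.15 in Adm+/- lungs (adjusted p = 0.00314). The WT call of C2 was lost without WT PBS replicate 3 (0.50, adjusted p = 0.0582), WT PBS replicate 5 (0.50, 0.0532), WT LPS replicate 9 (0.59, 0.0627) or WT LPS replicate 11 (0.54, 0.0590), and in a fit of only the 6 WT libraries (0.57, 0.120). A readthrough gene, Gm20547, covers both on the same strand and shares 73% of the 50-base stretches of Cfb and 38.7% of those of C2. Gm20547 held 0 counts in all 12 libraries, and how the counting treated reads on the shared stretches is not stated. Per kilobase of unshared sequence, a length chosen after the values had been seen, Cfb stood at 6.77 rather than 1.83 RPKM.

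Cfp encodes properdin, which stabilises the alternative convertase and is stored in neutrophils. It went from 13.3, 17.7 and 17.4 CPM in WT PBS to 60.4, 35.6 and 43.4 in WT LPS, and from 13.5, 14.4 and 13.4 in Adm+/- PBS to 48.7, 31.1 and 45.4 in Adm+/- LPS. All LPS libraries were above all PBS libraries. The highest WT LPS library was replicate 9, with neutrophil markers at 3110 CPM and macrophage and monocyte markers at 2420 CPM. The highest Adm+/- LPS library was replicate 1, with 1690 and 2370 CPM. The part of these markers in the Cfp values was not tested. The log2 fold change was 1.53 ± 0.21 in WT (edgeR adjusted p = 0.00086) and 1.6 ± 0.21 in Adm+/- lungs (adjusted p = 0.000317). Cfd, factor D, the protease that cleaves factor B and a known product of fat cells, held 1 to 10 counts in 11 libraries and 27 in WT PBS replicate 5. That library also had the highest sum of 7 adipocyte markers, 75.2 CPM against 31.7 to 47.5 CPM in the other 11, and their part in the Cfd value was not tested.

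**Figure D4:**
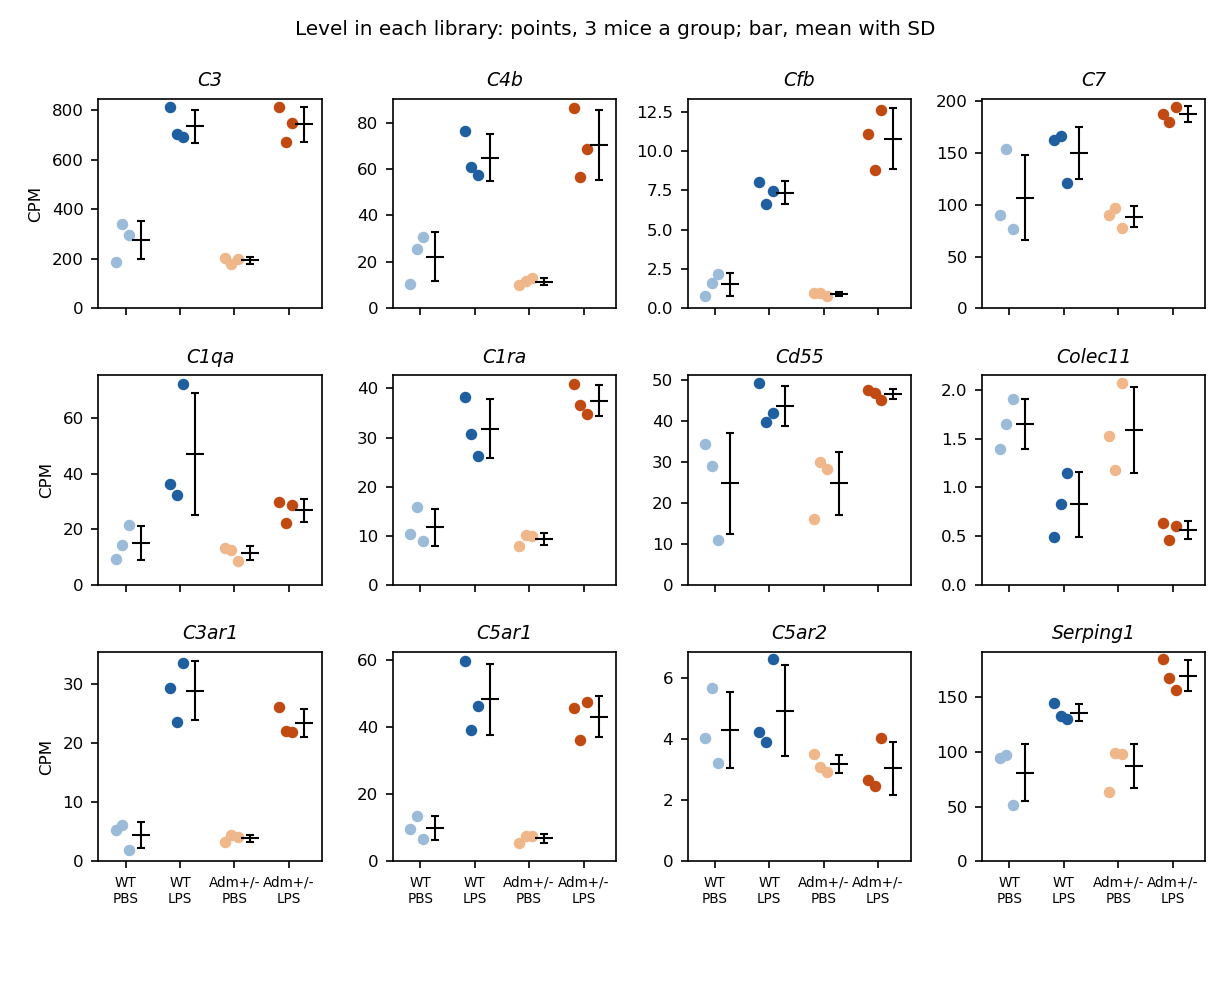
CPM of 12 of the genes in each library (points, 3 mice a group in order of replicate number), with the mean and SD of the group (bar) and axes starting at 0. LPS and PBS libraries separate for C3, C4b, Cfb and C3ar1, whereas the points of C5ar2 and, in WT mice, C7 overlap.

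The windows around the start sites of 21 of the 30 genes were in a RefSeq promoter table (GRCm38.p6, the same sequence as mm10), in 23 windows of 250 bases before and 50 after the start. They were searched on both strands for a STAT motif (TTCNNNGAA), an NF-kappa B motif (GGG and TTCC with any 3 bases between), an interferon-response motif (GAAA and GAAA with any 2 bases between) and a C/EBP motif (TTGCNNAA), the sites of factors known to act in acute-phase responses. A STAT motif was in 4 of the 23 windows (17.4%) against 8.3% of all 32851 windows, an NF-kappa B motif in 1 (4.35% against 5.56%), an interferon-response motif in 3 (13% against 3.44%) and a C/EBP motif in 4 (17.4% against 10.8%). Matches were in 10 genes, among them Masp2 (STAT), Cd59a (interferon-response) and C5ar2 (C/EBP), which were not called, and Colec11 (STAT and interferon-response), which was called lower. The windows of 4 genes called higher, C7 in Adm+/- mice only, were chosen for display, one for each of 4 roles: C3 (chr17:57228087-57228386, minus strand) a C/EBP match 45 bases before the start, C3ar1 (chr6:122856108-122856407, minus strand) an NF-kappa B match 14 bases before it, C1ra (chr6:124512371-124512670, plus strand) a C/EBP and a STAT match 16 and 32 bases after it, and C7 (chr15:5063724-5064023, minus strand) a STAT match 164 bases before it. Each is written 5′ to 3′ along the gene with the matched letters in capitals, and no match in these windows overlaps another. A match is only a match of letters and was not tested for binding.
C3: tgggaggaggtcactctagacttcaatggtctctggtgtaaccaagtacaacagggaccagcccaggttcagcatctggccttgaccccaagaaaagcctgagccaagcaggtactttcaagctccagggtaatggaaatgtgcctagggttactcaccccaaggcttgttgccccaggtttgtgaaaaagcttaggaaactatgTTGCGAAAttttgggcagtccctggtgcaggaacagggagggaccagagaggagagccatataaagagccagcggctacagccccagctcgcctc
C3ar1: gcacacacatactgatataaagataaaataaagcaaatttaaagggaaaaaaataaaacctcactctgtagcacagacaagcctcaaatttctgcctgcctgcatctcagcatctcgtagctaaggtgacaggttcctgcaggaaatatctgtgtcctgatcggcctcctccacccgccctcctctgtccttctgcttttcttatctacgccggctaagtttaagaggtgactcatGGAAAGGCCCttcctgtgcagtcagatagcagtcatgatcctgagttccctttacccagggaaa
C1ra: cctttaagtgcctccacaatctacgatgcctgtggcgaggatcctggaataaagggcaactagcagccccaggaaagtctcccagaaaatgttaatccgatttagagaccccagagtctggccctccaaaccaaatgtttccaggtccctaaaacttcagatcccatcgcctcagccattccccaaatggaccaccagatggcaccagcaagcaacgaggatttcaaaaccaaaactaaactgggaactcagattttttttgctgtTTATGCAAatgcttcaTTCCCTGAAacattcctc
C7: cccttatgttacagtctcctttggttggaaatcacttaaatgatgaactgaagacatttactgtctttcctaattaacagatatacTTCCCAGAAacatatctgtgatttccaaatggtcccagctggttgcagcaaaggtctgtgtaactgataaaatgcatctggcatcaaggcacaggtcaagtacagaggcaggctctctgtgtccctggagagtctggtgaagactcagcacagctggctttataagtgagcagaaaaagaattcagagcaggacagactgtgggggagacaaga

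The terminal components C6 and C7, which follow C5 in the membrane attack complex, lie 173.8 kb apart on chromosome 15. C7 stood at 90.1, 154 and 76.4 CPM in WT PBS, 163, 167 and 121 in WT LPS, 90.3, 97.4 and 77.5 in Adm+/- PBS and 188, 180 and 195 in Adm+/- LPS. In WT mice the groups overlapped through WT PBS replicate 4, and in Adm+/- mice they were well apart. For C6 the values were 25.1, 21.9 and 11 CPM in WT PBS, 27.2, 25.3 and 24.5 in WT LPS, 17.3, 17.8 and 13.8 in Adm+/- PBS and 36.2, 29.4 and 30.5 in Adm+/- LPS, with its lowest value in WT PBS replicate 5. C7 rose 2.12-fold (log2 1.09 ± 0.22, edgeR adjusted p = 0.00393) and C6 1.96-fold (0.97 ± 0.24, adjusted p = 0.0102) in Adm+/- mice. The WT log2 values of 0.49 ± 0.22 for C7 (adjusted p = 0.130) and 0.40 ± 0.24 for C6 (adjusted p = 0.242) did not pass. The difference between genotypes did not pass either, at 0.59 (95% interval -0.13 to 1.31) for C7 and 0.57 (-0.21 to 1.35) for C6, and it moved with single WT PBS libraries, to 0.23 for C7 without replicate 4 and to 0.34 and 0.86 for C6 without replicates 3 and 5. Without WT PBS replicate 4 C7 was called in WT mice as well (0.85, edgeR adjusted p = 0.00589). The WT value of C6 was 0.63 without WT PBS replicate 3 and 0.12 without replicate 5, and that of C7 was 0.30 without replicate 5.

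Among the regulators, Clu had the smallest SE of all the called genes. Clusterin, which keeps the terminal complex soluble, stood at 39.5, 38.8 and 40.8 CPM in WT PBS, 75.3, 61.5 and 70.5 in WT LPS, 36.4, 37.8 and 34.3 in Adm+/- PBS and 75, 66.5 and 75.1 in Adm+/- LPS. It rose 1.74-fold in WT mice (log2 0.80 ± 0.10, edgeR adjusted p = 0.00048) and 2-fold in Adm+/- mice (1 ± 0.10, adjusted p = 7.9e-05). Cfi, factor I, which cuts C3b and C4b, was scarce, with 0.505, 0.485 and 0.618 CPM in WT PBS, 1.39, 1.25 and 1.19 in WT LPS, 0.368, 0.676 and 0.437 in Adm+/- PBS and 0.860, 1.34 and 1.46 in Adm+/- LPS. Its groups were apart in both genotypes, with log2 fold changes of 1.26 ± 0.31 (edgeR adjusted p = 0.0149, and 1.19 with 0.0589 without WT LPS replicate 9) and 1.27 ± 0.30 (adjusted p = 0.0087).

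Serping1, the inhibitor of C1r, C1s and the MASP proteases, stood at 94.6, 97.6 and 51.1 CPM in WT PBS, 145, 133 and 130 in WT LPS, 63.8, 99 and 98.4 in Adm+/- PBS and 185, 168 and 157 in Adm+/- LPS. The lowest values were those of WT PBS replicate 5 and Adm+/- PBS replicate 6, the libraries that stood apart. The log2 fold change was 0.74 ± 0.23 in WT (edgeR adjusted p = 0.0381) and 0.96 ± 0.23 in Adm+/- lungs (adjusted p = 0.00812). Without both libraries the WT value was 0.50 and no longer called, with an adjusted p of 0.005, and the WT call was also lost, at 0.50 to 0.77 and adjusted p = 0.0522 to 0.130, without any one of replicates 5 (WT PBS), 9, 10 or 11 (WT LPS) and 1, 2 or 12 (Adm+/- LPS), and in a fit of only the 6 WT libraries (0.74, adjusted p = 0.106).

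The same pair of libraries was low for the membrane regulators. Cd46, a cofactor for the cleavage of C3b, stood at 11.6, 9.85 and 3.58 CPM in WT PBS, 20.6, 14 and 13.6 in WT LPS, 5.21, 9.36 and 9.3 in Adm+/- PBS and 19.4, 16.2 and 19.1 in Adm+/- LPS. The groups did not overlap. It was called in Adm+/- mice (1.19 ± 0.36, edgeR adjusted p = 0.0270), a call lost without Adm+/- PBS replicate 6 (0.96, 0.100), Adm+/- LPS replicate 1 (1.14, 0.0731) or replicate 12 (1.15, 0.0734), and not in WT mice (0.93 ± 0.36, adjusted p = 0.0840), where it was called by DESeq2 (adjusted p = 0.0375) and without WT PBS replicate 3 (1.24, 0.0454), whereas without WT PBS replicate 5 its value was 0.58 and not called. An antisense gene, A330023F24Rik, shares 13.5% of the stretches of Cd46 and went from 13 to 20.9 CPM in the 6 PBS libraries to 22.1 to 36.1 CPM in the 6 LPS libraries. Whether the counting used the strand is not stated. Cd55, decay-accelerating factor, which breaks up the C3 convertases, stood at 34.5, 29 and 11 CPM in WT PBS, 49.3, 39.8 and 42.1 in WT LPS, 16, 30 and 28.4 in Adm+/- PBS and 47.7, 46.8 and 45.3 in Adm+/- LPS. Although no LPS library reached down to a PBS library, it was not called, at 0.81 ± 0.33 in WT (edgeR adjusted p = 0.104) and 0.91 ± 0.33 in Adm+/- lungs (adjusted p = 0.0596). In WT mice it was called without WT PBS replicate 3 (1.12, edgeR adjusted p = 0.0467), and was 0.46 and not called without WT PBS replicate 5. In Adm+/- mice it was called without WT PBS replicate 3 (0.90, edgeR adjusted p = 0.0463), without WT PBS replicate 5 (0.91, 0.0043) or without both libraries that stood apart (0.67, 0.00189), and there also by DESeq2 (0.0236), limma-voom (0.0466) and a fit of only the 6 Adm+/- libraries (0.0078). Without Adm+/- PBS replicate 6 alone the Adm+/- value was 0.67 and not called. Cd59a, the membrane blocker of the terminal complex, stayed between 2.97 and 6.34 CPM, with log2 fold changes of 0.14 (95% interval -0.41 to 0.69) and 0.29 (-0.26 to 0.84). The latter was 0.14 without Adm+/- LPS replicate 12 and 0.38 without Adm+/- LPS replicate 2.

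The anaphylatoxin receptors split. C3ar1, the receptor of C3a (chromosome 6, 122847138 to 122856161, minus strand), stood at 5.36, 6.07 and 1.85 CPM in WT PBS, 29.2, 23.6 and 33.5 in WT LPS, 3.21, 4.39 and 4.06 in Adm+/- PBS and 26, 22 and 21.8 in Adm+/- LPS. C5ar1, the signalling receptor of C5a, stood at 9.67, 13.5 and 6.61, then 59.6, 39 and 46.1, then 5.31, 7.6 and 7.47, and then 45.6, 36 and 47.4 CPM in the same groups. Both were far higher in every LPS library. C3ar1 rose 6.41-fold in WT mice (log2 2.68 ± 0.33, edgeR adjusted p = 0.000424), the steepest rise of the 27 there, and 5.96-fold in Adm+/- mice (2.58 ± 0.32, adjusted p = 0.000221). C5ar1 rose 4.84-fold (2.28 ± 0.25, edgeR adjusted p = 0.000252) and 6.30-fold (2.66 ± 0.26, adjusted p = 7.43e-05). C5ar2, a second C5a receptor that does not couple to G proteins, did not follow, at 4.04, 5.68 and 3.21 CPM in WT PBS, 4.25, 3.91 and 6.65 in WT LPS, 3.52, 3.11 and 2.94 in Adm+/- PBS and 2.66, 2.47 and 4.06 in Adm+/- LPS. Its groups overlapped in both genotypes, with log2 fold changes of 0.19 (95% interval -0.45 to 0.83) and -0.05 (-0.70 to 0.60).

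Neutrophils and macrophages are the known carriers of C5ar1 and C3ar1. The sum of 11 neutrophil markers went from 65.4 to 197 CPM in WT PBS to 1790 to 3110 in WT LPS and from 44.1 to 73.6 in Adm+/- PBS to 1690 to 2010 in Adm+/- LPS, with 10 and 11 of the 11 called higher. Its leading markers S100a9 and S100a8 had log2 fold changes of 4.71 and 5.17 in WT and 5.49 and 5.86 in Adm+/- mice. The part of these markers in the receptor values was not tested. Cr2, the C3d receptor of B cells, stood at 1.24 to 4.62 CPM, with log2 fold changes of 0.50 (95% interval -0.49 to 1.48) and -0.12 (-1.11 to 0.87), the former 0.20 without WT PBS replicate 5 and 1.03 without WT PBS replicate 3. The 7 B cell markers summed to 36.1 to 64.8 CPM over all groups. Vsig4, the C3b receptor of resident macrophages, had 0 or 1 count in each PBS library, 5, 2 and 4 counts in WT LPS and 8, 7 and 6 in Adm+/- LPS, and Mbl2 had 0 to 6 counts in all groups, so no fold is given for either.

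Muscle and squamous epithelium markers also rose in WT mice, with 8 of 8 and 6 of 6 tested called higher against 1 and 0 in Adm+/- mice. Skeletal muscle markers summed to 19.9 to 28.7 CPM in WT PBS and 697 to 1860 CPM in WT LPS, but to 18 to 24 and 30.5 to 54 CPM in Adm+/- mice, and 7 squamous markers reached 24.5 to 2870 CPM in WT LPS against at most 39.4 CPM in any other group. The 8 liver markers summed to 5.13 to 16.7 CPM in WT PBS, 13.8 to 67.3 in WT LPS, 5.77 to 31.6 in Adm+/- PBS and 16.1 to 23.3 in Adm+/- LPS, with 2 of 7 tested called higher in WT and 1 in Adm+/- mice. The 9 lung fibroblast markers summed to 20100 to 47100 CPM in WT PBS, 14600 to 19400 in WT LPS, 19100 to 31800 in Adm+/- PBS and 17100 to 18900 in Adm+/- LPS, with 2 of 9 called higher and 0 lower in WT and 1 higher and 1 lower in Adm+/- mice. The part of these markers in the WT responses was not tested.

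Some members that lie close together on a chromosome changed their proportions. For each of the 8 pairs of members under 200 kb apart with no other member between (other genes lie between C4b and Cfb, C6 and C7, and Cd46 and Cr2), the log2 ratio of their counts was compared between LPS and PBS within the same libraries, by a two-sided exact permutation of treatment within genotype over 400 assignments, for which 0.005 is the smallest p; these ratios were chosen after the values had been seen. C5ar2 to C5ar1, 2.6 kb apart on chromosome 7, had a log2 ratio of -1.26 to -1.04 in WT PBS, -3.81 to -2.79 in WT LPS, -1.35 to -0.59 in Adm+/- PBS and -4.1 to -3.55 in Adm+/- LPS. The ratio fell by 2.44 on average (exact permutation p = 0.005, adjusted over the 8 pairs 0.0133). All these ratios use the same counts as the fold changes above, so they are not separate evidence. Cfb to C2 rose by 2.28 on the log2 scale (exact permutation p = 0.005, adjusted 0.0133) and C4b to Cfb fell by 0.82 (exact permutation p = 0.005, adjusted 0.0133). Cd46 to Cr2 rose by 0.86 (exact permutation p = 0.01, adjusted 0.02), with 0.45 in WT mice, where the groups overlapped, and 1.26 in Adm+/- mice. C1ra to C1s1 rose by 0.36 (exact permutation p = 0.025, adjusted 0.04), with 0.11 in WT mice, where the groups overlapped, and 0.62 in Adm+/- mice, a result lost without WT PBS replicate 3 (0.32, adjusted 0.0667) or WT LPS replicate 9 (0.35, 0.056). Adjacent C1q chains shifted less against each other. C1qc to C1qa rose by 0.20 (exact permutation p = 0.03, adjusted 0.04, and adjusted 0.06 to 0.0733 without WT PBS replicate 3 or 4, WT LPS replicate 9 or 11 or Adm+/- PBS replicate 6), with groups that overlapped in WT mice, and C1qb to C1qc by 0.13 (p = 0.27, adjusted 0.309). C1qb and C1qa, with C1qc between them, were not a tested pair. Their count ratio was 1.07 to 1.21 in WT PBS and 1.16 to 1.41 in WT LPS, which overlapped. It was 1.07 to 1.17 in Adm+/- PBS and 1.44 to 1.63 in Adm+/- LPS, which did not. The log2 ratio of C6 to C7 moved by -0.08 (exact permutation p = 0.675, adjusted 0.675, and 0.07 without WT PBS replicate 3).

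**Figure D5:**
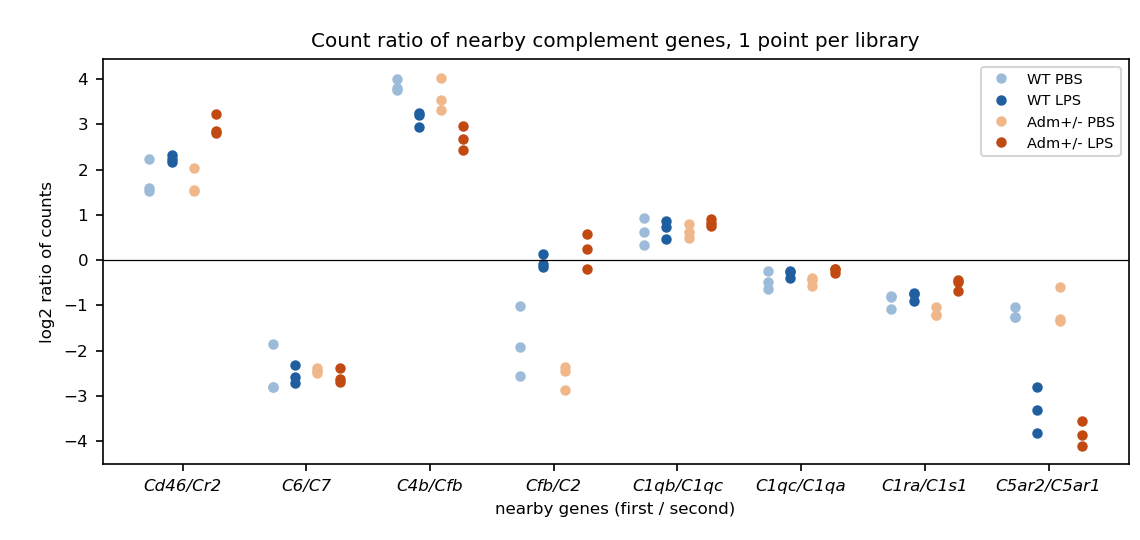
Log2 ratio of the counts of 8 pairs of nearby members, with 1 point per library in the 4 groups. C5ar2/C5ar1 falls in every LPS library of both genotypes and Cfb/C2 rises, whereas C6/C7 and C1qb/C1qc keep overlapping groups.

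None of the 27 genes was called between genotypes. For the difference in the LPS response 0 were called (beside 0.145% of all genes), for Adm+/- against WT in PBS 0 (beside 0 of all genes) and in LPS 0 (beside 2.05%). At an unadjusted edgeR p under 0.05 there were 2 of the 27 in each of these 3 comparisons, beside 7.85%, 2.17% and 14.3% of all genes, and 0 were called under each alternative run. Between genotypes, 1 of the 30 genes was higher and 1 lower without overlap in PBS (beside 2.47% and 2.51% of all genes), and 6 and 3 in LPS (beside 12.2% and 12.4%). The differences with the lowest p were those of Cfb, 1.23 on the log2 scale (95% interval 0.25 to 2.2, edgeR adjusted p = 0.459), and C4b, 1.06 (0.05 to 2.07, adjusted p = 0.569), in the direction of a steeper rise in Adm+/- mice. Without WT PBS replicate 5 they were 0.88 for Cfb and 0.76 for C4b, and without WT PBS replicate 3 they were 1.57 and 1.40. In PBS, C4b was 0.94 lower on the log2 scale in Adm+/- mice (log2 difference -0.94, 95% interval -1.67 to -0.21, edgeR adjusted p = 0.999) and C3 had -0.50 (-0.91 to -0.09, adjusted p = 0.999), or -0.32 without WT PBS replicate 4. The C4b value was -0.63 without WT PBS replicate 5. Without WT PBS replicate 3 the values were -1.28 for C4b and -0.71 for C3. In LPS the same genes differed by 0.12 (95% interval -0.58 to 0.82) and 0.02 (-0.39 to 0.42), and Cfb by 0.55 (-0.06 to 1.17, edgeR adjusted p = 0.379). The PBS libraries enter both the PBS comparison and the difference in response, so these values are not separate evidence. C5ar2 and C1qa were the 2 genes with a low unadjusted p in LPS, at -0.68 (-1.32 to -0.04, edgeR adjusted p = 0.276) and -0.81 (-1.58 to -0.04, adjusted p = 0.288) in Adm+/- against WT mice, and the C1qa value was -0.36 without WT LPS replicate 11. The C5ar2 libraries overlapped between genotypes in LPS, and the highest, at 6.65 CPM, was WT LPS replicate 11 as well.

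Of 39 other complement genes, 26 were tested. In WT mice 5 of them were called higher and 2 lower, and in Adm+/- mice 6 higher and 2 lower. The share called, 26.9% in WT and 30.8% in Adm+/- mice, stood beside 17.6% and 25% of all genes, with medians of 0.26 and 0.40. Those called in both genotypes were Itgam and Itgb2, the chains of the iC3b receptor CR3, the C1r-like protease C1rl, the ficolin gene Fcnb of myeloid cells, and Csmd3. Itgam rose by 3.47 ± 0.36 in WT (edgeR adjusted p = 0.000161) and 3.63 ± 0.37 in Adm+/- lungs (adjusted p = 8.02e-05) on the log2 scale, from 1.53 to 3.93 CPM in the PBS libraries to 17.6 to 45.3 CPM in the LPS libraries. The symbol Itgam occurs more than once among the counted genes, and the entry with the most counts was used. Itgb2 rose by 1.58 ± 0.17 (adjusted p = 0.000237) and 1.55 ± 0.17 (adjusted p = 0.000124), C1rl by 1.15 and 1.33, and Fcnb by 3 and 2.27, whereas Csmd3, a large membrane protein with complement-control domains, fell by 2.14 and 1.72 on that scale. Of the near copies of members, Cd55b gave 0.56 and 0.76 and Cd59b -0.53 and -0.76, none called. Hc, the gene of C5 and thus the source of the C5a ligand, was named after its values had been seen: it stood at 234 to 534 CPM, lowest in WT PBS replicate 5, and gave 0.36 ± 0.22 (edgeR adjusted p = 0.254) and 0.42 ± 0.22 (adjusted p = 0.172). Without that library, a refit chosen after the values had been seen, the WT value of Hc was 0.10 (edgeR adjusted p = 0.652). C9, the pore-forming last component, had at most 2 counts in any library.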

How the data were processed

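Directional libraries of rRNA-depleted RNA were prepared from the lungs. The deposited table holds raw counts per gene, which the authors made by aligning reads with HISAT2 to mm10 and counting them on Gencode genes with featureCounts. The Gencode release and the strand option are not given in the sources used here. The groups were taken from the sample labels. The 30 genes and all lists were chosen with earlier results of these data known.

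Of 21950 protein-coding genes, the 15885 passing filterByExpr were TMM-normalized and tested with edgeR 4.0.16 (R 4.3.3, glmQLFit and glmQLFTest), with 1 coefficient per group, 8 residual degrees of freedom and Benjamini-Hochberg adjustment over all tested genes. The 5 contrasts were LPS against PBS in each genotype, their difference, and Adm+/- against WT in PBS and in LPS. Intervals are the log2 fold change with its SE and a t quantile on 8 degrees of freedom. CPM used effective library sizes and RPKM the union of exons in Gencode M21. Named genes were the 30 members, Adm, other complement genes called in both LPS contrasts, near copies of members and the 2 leading markers of a list. Alternatives included DESeq2 1.42.0 and limma-voom (limma 3.58.1). No 2 libraries of a group agreed within sampling noise. Reads carry no molecular identifiers, so counts cover counting error only. The planned comparison of protein sequences was replaced by shared 50-base stretches of transcripts, since no protein table was used here. The scripts were tested on simulated data. Of the other complement genes, 1 is not reported here.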

Additional observations from a re-analysis of the deposited data

Results flagged for a closer look

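Of the complement genes too low or not protein coding and thus outside the tests, 4 are given here because every Adm+/- LPS library was above every Adm+/- PBS library and held more than 3 counts. Crp was also higher in every Adm+/- LPS library, but with 3 counts in the lowest. The genes looked at were the 3 untested members and those of the 39 other complement genes that were not among the 26 tested. Of all tested genes, 26.6% were higher without overlap in Adm+/- mice, with no floor on counts. No untested complement gene met the same terms in WT mice. Among those that did not meet these terms were Cfd, with 1, 4 and 2 counts in Adm+/- PBS and 10, 3 and 5 in Adm+/- LPS and more counts in WT PBS (34) than in WT LPS (13), and Mbl2, with 7 counts in Adm+/- PBS and 4 in Adm+/- LPS. Vsig4 had 21 counts in the 3 Adm+/- LPS libraries (6 to 8 each) against at most 1 in an Adm+/- PBS library, and 5, 2 and 4 in WT LPS against at most 1 in WT PBS. C1rb, the near copy of C1ra, had 17 counts (4 to 8 each) against at most 3, and 1, 5 and 0 in WT LPS. C4bp, a gene of the C4b-binding protein, had 27 counts (8 to 11 each) against at most 3, and 10, 5 and 10 in WT LPS against at most 7 in WT PBS. C4a, which the annotation gives as a processed transcript and which shares sequence with C4b, had 219 counts (65 to 80 each) against at most 49, and 79, 44 and 61 in WT LPS against at most 50 in WT PBS. The 4 genes were picked for this pattern, and no fold change was fitted for them.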

How the results depend on the processing

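No paired analysis was possible because the replicate numbers in the labels are library numbers that no 2 groups share. Leaving out 1 library gave 12 to 16 members called in WT mice (beside 9 to 19.1% of all genes) and 17 to 21 in Adm+/- mice (18.8 to 27.9%). The other 9 settings gave 11 to 18 in WT (6.3 to 20.9% of all genes) and 13 to 21 in Adm+/- mice (10.7 to 29.2%), where the test against a log2 fold change of 0.5 gave 13 of 20. Over all genes, that test called 1001 in place of 2791 in WT and 1695 in place of 3968 in Adm+/- mice, a fit of only the 6 libraries of the comparison called 1152 in WT, and leaving out WT LPS replicate 9 called 1443 in WT. Of 617 refitted log2 fold changes outside the leave-one-out fits, 590 kept direction and side of the threshold. The 2 that reversed, with both PBS libraries 5 and 6 left out, were C5ar2 in Adm+/- mice (0.02) and Cd59a in WT mice (-0.10). Leaving out 1 library reversed uncalled values only: the difference between genotypes of C1qa (-0.75 to 0.04), C1qb (-0.47 to 0.14) and C1qc (-0.82 to 0.18), C5ar2 in WT (-0.08 to 0.43) and Adm+/- mice (-0.31 to 0.08), Cd59a in WT (-0.10 to 0.27), Cr2 in Adm+/- mice (-0.44 to 0.08), and the log2 ratio of C6 to C7 (-0.17 to 0.07). The causes were not tested. In fits that left a group with 2 libraries the spread was pooled over the groups. Masp2, at a mean of 0.864 CPM, had wide intervals, whereas Cfi, at 0.882 CPM, had smaller SEs than the more abundant C1qa.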
